A study of Homo sapiens with 8 samples.

Results

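The 9 genes described here belong to the antigen presentation pathway of the major histocompatibility complex (MHC) class I and were followed in PANC-1 cells treated with eupalinolide B (EB). They were chosen by symbol among the 20263 genes measured: the heavy chains HLA-B, HLA-C and HLA-E, the light chain B2M, the peptide transporter subunits TAP1 and TAP2, the loading factor TAPBP, and the immunoproteasome subunits PSMB8 and PSMB9. PANC-1 is an established human line of pancreatic ductal carcinoma, and EB is a sesquiterpene lactone from Eupatorium lindleyanum. One group received 10 μM EB and the other the vehicle dimethyl sulfoxide (DMSO), both for 24 h, in 4 cultures each that the methods call biological replicates. All 8 libraries come from a single cultured line, which limits them as a model. Expression was given as TPM, which is a share of a library's transcripts corrected for length.

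Class I molecules carry fragments of the cell's own proteins to the surface, where CD8 T cells and natural killer cells inspect them. Proteins are cut by the proteasome, and interferon exchanges its constitutive catalytic subunits for PSMB8, PSMB9 and PSMB10. TAP1 and TAP2 pump the resulting peptides into the endoplasmic reticulum, TAPBP (tapasin) bridges the pump to empty class I molecules, and loaded complexes of a heavy chain with B2M leave for the surface. Loss of this machinery is a known way in which tumors escape T cells.

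The promoters of classical heavy chains and of B2M are known for a shared layout. Windows of these and of other genes among the 9 are shown because several factors that bind such promoters are described further on. The sequences are the 250 bases before the RefSeq start on GRCh38.p14, and 8 of the 9 genes had an entry (HLA-E had none). Capitals mark matches, on either strand, to the NF-kB consensus, to AANNGAAA (the core that interferon regulatory factors read), to CCAAT (read by NF-Y) and to TGACG (read by CREB and ATF proteins). The motifs were picked after the sequences had been seen, and a match is a string of letters and not a measured binding site. The 6 windows shown are HLA-B at chr6:31357180-31357429 (minus strand), B2M at chr15:44711267-44711516 (plus strand), TAP1 at chr6:32853705-32853954 (minus strand), TAPBP at chr6:33314079-33314328 (minus strand), PSMB8 at chr6:32844680-32844929 (minus strand) and PSMB9 at chr6:32853942-32854191 (plus strand).
HLA-B: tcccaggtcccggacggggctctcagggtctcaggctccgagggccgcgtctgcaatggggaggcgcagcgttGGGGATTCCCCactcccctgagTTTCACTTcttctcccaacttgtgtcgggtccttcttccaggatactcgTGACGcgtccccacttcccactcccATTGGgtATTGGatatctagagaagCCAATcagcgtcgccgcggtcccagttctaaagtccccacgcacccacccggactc
B2M: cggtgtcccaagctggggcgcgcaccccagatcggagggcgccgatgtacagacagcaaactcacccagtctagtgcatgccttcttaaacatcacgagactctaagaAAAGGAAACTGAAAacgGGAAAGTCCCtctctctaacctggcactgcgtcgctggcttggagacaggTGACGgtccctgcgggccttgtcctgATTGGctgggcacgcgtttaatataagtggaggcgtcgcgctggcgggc
TAP1: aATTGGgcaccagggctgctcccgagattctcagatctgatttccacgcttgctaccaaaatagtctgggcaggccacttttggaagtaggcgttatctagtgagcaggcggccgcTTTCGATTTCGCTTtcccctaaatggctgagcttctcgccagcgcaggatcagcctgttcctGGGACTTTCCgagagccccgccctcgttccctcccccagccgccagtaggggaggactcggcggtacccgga
TAPBP: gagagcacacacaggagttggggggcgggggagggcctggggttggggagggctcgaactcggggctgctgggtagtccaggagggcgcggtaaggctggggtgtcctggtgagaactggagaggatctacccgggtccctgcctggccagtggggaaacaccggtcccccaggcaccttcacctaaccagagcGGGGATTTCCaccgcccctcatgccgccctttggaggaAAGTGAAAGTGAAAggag
PSMB8: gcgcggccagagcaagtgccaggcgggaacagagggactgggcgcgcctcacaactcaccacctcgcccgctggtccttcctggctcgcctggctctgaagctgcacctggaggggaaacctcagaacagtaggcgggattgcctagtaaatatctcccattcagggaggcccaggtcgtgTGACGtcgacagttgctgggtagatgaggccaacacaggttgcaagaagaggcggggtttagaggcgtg
PSMB9: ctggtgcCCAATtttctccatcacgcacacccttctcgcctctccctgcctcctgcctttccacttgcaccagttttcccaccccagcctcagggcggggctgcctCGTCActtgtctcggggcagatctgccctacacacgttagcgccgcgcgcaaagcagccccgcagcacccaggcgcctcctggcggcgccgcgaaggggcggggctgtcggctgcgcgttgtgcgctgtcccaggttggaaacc

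A match to the NF-kB consensus stood in 5 of the 8 windows (HLA-B, HLA-C, B2M, TAP1 and TAPBP) and in 9.96% of 35116 promoter windows of the same length. AANNGAAA stood in 6 (HLA-B, HLA-C, B2M, TAP1, TAP2 and TAPBP), against 20.3% of all windows. It occurred as a pair in B2M, TAP1, TAP2 and TAPBP, in TAPBP between 18 and 5 bases before the start. CCAAT was found in 5 of the 8 and in 32.0% of all windows. The TAP1 and PSMB9 windows overlap by 13 bases, and their CCAAT matches are 1 and the same site. HLA-B held 3 copies between 81 and 52 bases before its start, and HLA-C held several between 192 and 52 bases before its own. TGACG was found in 6 of the 8 and in 21.2% of all windows. The PSMB8 window held only TGACG, and the PSMB9 window held CCAAT and TGACG. No match to one motif overlapped a match to another. For 6 of the 8 genes the outermost start in GENCODE release 44 lies upstream of the RefSeq start, so other transcripts can run through part of a window.

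On hg38 the genes lie on chromosome 6, apart from B2M on chromosome 15 (44711358 to 44718851, plus strand). TAP2, PSMB8, TAP1 and PSMB9 share a block of 38019 bases in the MHC class II region, from 32821833 to 32859851, and TAPBP follows at 33299694 to 33314284. HLA-E (30489509 to 30494194), HLA-C (31268749 to 31272130) and HLA-B (31353872 to 31367067) lie in the class I region. The RefSeq starts of TAP1 and PSMB9 are 488 bases apart and point away from each other. In GENCODE the PSMB9 gene model overlaps those of TAP1 and PSMB8 on the opposite strand. Whether strand was used in counting is not given in the sources used here, so reads from these overlaps cannot be assigned with certainty. The heavy chains are paralogs. Of the windows of 50 bases in the reference transcript of HLA-B, 2.02% also occur in HLA-C, and the alleles of PANC-1 can differ from the reference.

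The depth of each library is unknown from TPM, and 11353 to 11894 genes per library reached 1 TPM. The 13 mitochondrially encoded genes took 17.0% to 39.0% of the TPM with DMSO and 11.6% to 20.3% with EB. DMSO replicate 4 held the 39.0%. Since TPM have a fixed sum, such a share leaves less for the other genes of that library together. Single genes can still be high there, as B2M was (157 TPM). The part of this share in single values was not tested, and values without this library are given where they matter. The tumor cell label was checked by markers. KRT8, KRT18 and KRT19 were expressed and rose with EB, whereas the epithelial markers KRT7 and EPCAM were below 1 TPM in all libraries, and the 5 markers summed to 991 to 1454 TPM with DMSO and 3209 to 3593 TPM with EB. The part of this rise, in libraries of fixed sum, in the results was not tested. The leukocyte markers PTPRC, CD3E and TYROBP were listed at 0 throughout, and the 6 leukocyte markers together summed to at most 1.62 TPM. Of the fibroblast markers, COL1A2 was expressed, at 79.4 ± 12.2 TPM with DMSO (SD, n = 4).

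EB was compared with DMSO gene by gene with limma on log2(TPM + 1), where fold changes of low genes are understated. A gene was called at a Benjamini-Hochberg adjusted p under 0.05 over the 11725 genes with at least 1 TPM in at least 4 libraries. All 9 genes passed this filter. Of these, 4 were lower with EB (PSMB8, PSMB9, TAP1 and TAPBP), 0 were higher, and 5 were not called. Among all genes tested, 25.1% were called lower and 15.2% higher, 40.3% in all. At an unadjusted limma p under 0.05, 6 genes were lower and 0 higher, against 30.5% and 19.4% of all genes. The EB values lay wholly below the DMSO values for PSMB8, PSMB9 and TAPBP, while 20.3% of all genes tested showed such a gap, and for 0 of the 9 wholly above them, against 16.6% of all genes. The median log2 fold change of the 9 genes was −0.52, against −0.11 for all genes tested, and 8 of the 9 were negative, against 57.3% of all genes. With the study's cutoffs of p and log2 fold change, read here as an unadjusted limma p below 0.05 and an absolute value above 1.5, 0 of the 9 genes passed, against 2.08% of all genes. In bulk RNA, fewer cells that express a gene and less RNA per cell cannot be told apart.

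**Figure D1:**
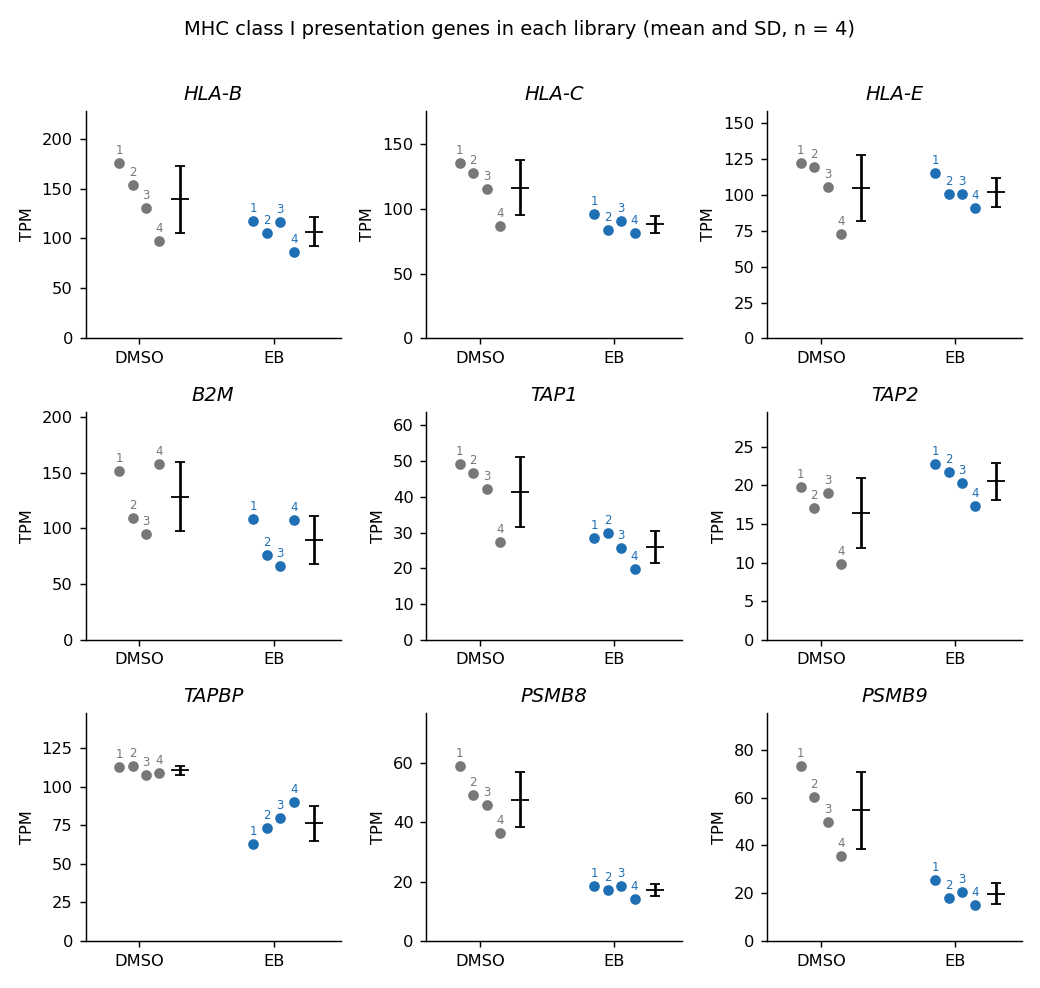
TPM of the 9 genes by group, with 1 panel per gene. Points are single libraries numbered by replicate (grey DMSO, blue EB) and bars the mean with its SD (n = 4). The groups are fully separated for PSMB8, PSMB9 and TAPBP, while DMSO replicate 4 is the lowest DMSO library for every gene but B2M and TAPBP.

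The immunoproteasome subunits showed the largest fold changes of the 9 genes. PSMB8 (LMP7), which replaces the constitutive subunit PSMB5, had 59.1, 49.3, 45.9 and 36.5 TPM in DMSO replicates 1 to 4 and 18.5, 17.0, 18.5 and 14.3 TPM in EB replicates 1 to 4. The lowest DMSO library was thus well above the highest EB library. The mean fell from 47.7 ± 9.34 to 17.1 ± 1.98 TPM (SD, n = 4 each), which on the log2 scale is a change of −1.42 (limma adjusted p = 0.000318, standard error 0.16). PSMB9 (LMP2), which replaces PSMB6, had 73.4, 60.2, 49.6 and 35.6 TPM with DMSO and 25.7, 18.0, 20.3 and 15.1 TPM with EB. Here too every EB library was below every DMSO library. The mean fell from 54.7 ± 16.0 to 19.8 ± 4.49 TPM (SD, n = 4 each), a change of −1.40 on the log2 scale (limma adjusted p = 0.00175, standard error 0.23). Only 2.09% of the genes tested had a log2 fold change as low as that of PSMB8, and 2.17% one as low as that of PSMB9. Both genes were called under all 17 alternative settings, between −1.84 and −1.29 for PSMB8 and between −1.85 and −1.25 for PSMB9.

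Of the constitutive catalytic subunits, 0 of 3 were called lower and 2 were higher. PSMB5 had 159 ± 33.0 TPM with DMSO and 176 ± 32.7 with EB (SD, n = 4 each; log2 fold change 0.15, limma adjusted p = 0.540). PSMB6 rose from 161 ± 35.5 to 264 ± 46.5 TPM (0.72, limma adjusted p = 0.0166), and PSMB7, the partner of PSMB10, rose from 306 ± 45.2 to 498 ± 50.8 TPM (0.71, limma adjusted p = 0.00442). The calls of PSMB6 and PSMB7 were lost once a trend on transcript length and GC content was removed (0.25 and 0.27, limma adjusted p = 0.354 and 0.216). A ratio of both kinds of subunit within a library is not changed by a factor common to all genes of that library. PSMB8 relative to PSMB5 was 0.281 to 0.311 in the DMSO libraries and 0.0758 to 0.117 in the EB libraries. PSMB9 relative to PSMB6 was 0.265 to 0.390 with DMSO and 0.0711 to 0.0809 with EB. Neither ratio overlapped between the groups. The differences were −1.62 and −2.17 on the log2 scale, each at the smallest p that the exact two-sided permutation test over 70 assignments can give (p = 0.0286, adjusted over 6 ratios p = 0.0571).

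**Figure D2:**
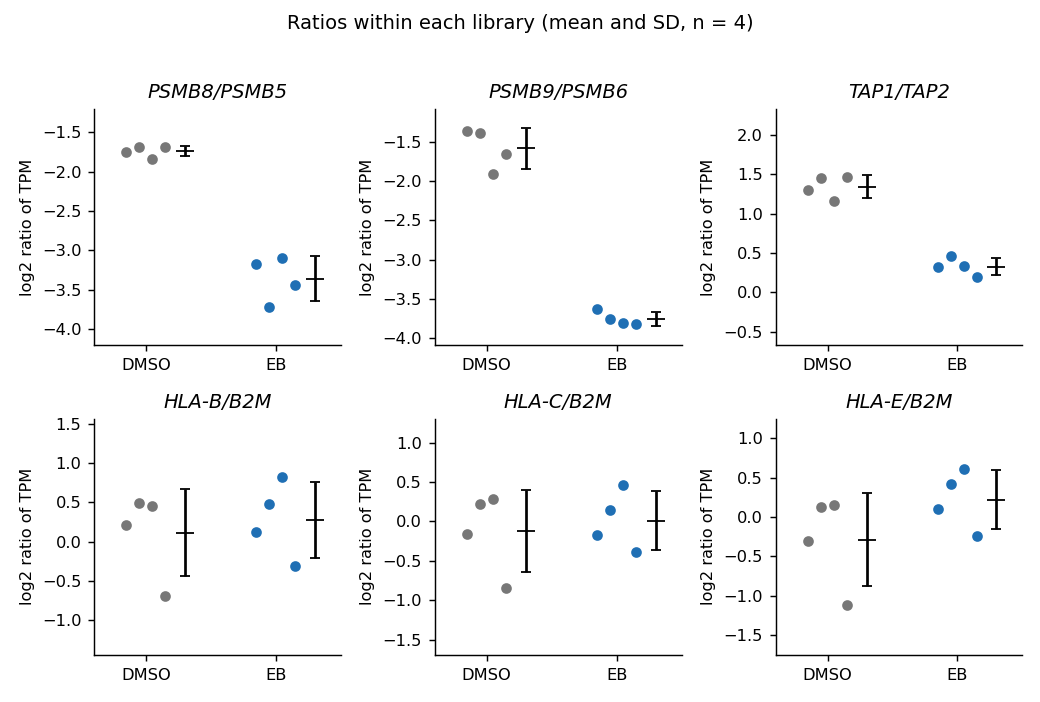
Log2 ratios of TPM within each library, 1 panel per ratio. Points are single libraries, placed from left to right by replicate within a group, and every vertical axis spans the same length in log2 units. PSMB8/PSMB5, PSMB9/PSMB6 and TAP1/TAP2 are separated between DMSO and EB, while the ratios of the heavy chains to B2M overlap.

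Of the transporter subunits, TAP1 was called lower and TAP2 was not called. TAP1 had 49.0, 46.7, 42.3 and 27.2 TPM in DMSO replicates 1 to 4 and 28.4, 29.9, 25.6 and 19.8 TPM in EB replicates 1 to 4. The groups overlapped through DMSO replicate 4, which lay below EB replicates 1 and 2. TAP1 fell from 41.3 ± 9.78 to 25.9 ± 4.45 TPM (SD, n = 4 each; log2 fold change −0.63, limma adjusted p = 0.0324, standard error 0.20). This call was lost in 6 of 8 fits that left out 1 library (DMSO replicate 1, 2 or 3, or EB replicate 1, 3 or 4, limma adjusted p at most 0.0891) and held without DMSO replicate 4 (−0.82, limma adjusted p = 0.00245) and without EB replicate 2. It was also lost with no filter on low values (limma adjusted p = 0.0550). TAP2, the other subunit of the heterodimer, had 19.8, 17.0, 19.0 and 9.87 TPM with DMSO and 22.7, 21.8, 20.3 and 17.3 TPM with EB. Its values overlapped and it was not called, at 16.4 ± 4.53 against 20.5 ± 2.35 TPM (SD, n = 4 each; 0.34, limma adjusted p = 0.211). TAP2 was called higher with median-ratio scaling, quantile normalization or removal of the length and GC trend (0.47 to 0.62). Within a library TAP1 was 2.23 to 2.76 times TAP2 with DMSO and 1.14 to 1.37 times with EB. The ratio differed by −1.02 on the log2 scale with no overlap (exact two-sided permutation p = 0.0286, adjusted over 6 ratios p = 0.0571). A read-through transcript that overlaps TAP2, ENSG00000250264, had at most 1.06 TPM.

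TAPBP, the bridge between the transporter and class I molecules, was among the steadiest of the 9 genes with DMSO, at 113, 114, 108 and 109 TPM. The EB libraries held 63.0, 73.0, 79.7 and 90.0 TPM, all below the DMSO libraries. The mean fell from 111 ± 2.94 to 76.4 ± 11.3 TPM (SD, n = 4 each), a difference of −0.54 on the log2 scale (limma adjusted p = 0.0103, standard error 0.13). TAPBP kept its call when any 1 library was left out (limma adjusted p at most 0.0330). With median-ratio scaling it was not called (−0.41, limma adjusted p = 0.0614).

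B2M, the light chain common to all class I molecules, had 151, 109, 95.2 and 157 TPM with DMSO and 108, 75.7, 66.0 and 107 TPM with EB. Both groups spread widely and overlapped. The means were 128 ± 30.7 and 89.2 ± 21.5 TPM (SD, n = 4 each), and the log2 fold change of −0.52 was not called (limma adjusted p = 0.0835, standard error 0.22). With the length and GC trend removed B2M was called lower (−0.97, limma adjusted p = 0.00482). The EB value of each replicate number was below the DMSO value of that number. With a replicate block B2M was also called lower (−0.52, limma adjusted p = 0.00648), though over all genes the numbers did not pair the libraries, as given below. B2M was called in 3 of 17 alternatives.

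None of the 3 heavy chains was called in the fit on TPM as deposited. HLA-B, a classical chain that presents peptides to CD8 T cells, had 175, 153, 130.5 and 97.1 TPM with DMSO and 118, 106, 117 and 86.4 TPM with EB. DMSO replicate 4 lay below 3 of the 4 EB libraries, and the other 3 DMSO libraries lay above all of them. The log2 fold change was −0.36 (95% interval −0.79 to 0.07, limma adjusted p = 0.162). HLA-C, also classical and a ligand of natural killer cell receptors, had 135, 128, 116 and 87.3 TPM with DMSO and 96.1, 83.9, 90.8 and 81.7 TPM with EB. Its pattern was the same, with DMSO replicate 4 inside the EB range and the other 3 above it. The log2 fold change was −0.38 (limma adjusted p = 0.0723, standard error 0.15). Without DMSO replicate 4 both HLA-B (−0.52, limma adjusted p = 0.0187) and HLA-C (−0.51, limma adjusted p = 0.00421) were called lower. In that fit 36.4% of all genes were called lower and the median of all genes was −0.20. HLA-B and HLA-C were also called lower with the length and GC trend removed (−0.68 and −0.70, limma adjusted p = 0.0136 and 0.00386) and with quantile normalization (−0.50 each). HLA-E, the nonclassical chain that engages the NKG2A receptor, had 122, 120, 106 and 72.5 TPM with DMSO and 115, 101, 101 and 90.8 TPM with EB. The EB values fell within the DMSO range, and the log2 fold change was −0.02 (95% interval −0.41 to 0.38, limma adjusted p = 0.947).

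The ratio of each heavy chain to B2M did not separate the groups. It changed by 0.16 for HLA-B, 0.14 for HLA-C and 0.51 for HLA-E on the log2 scale (exact two-sided permutation p = 0.657, 0.714 and 0.200, and adjusted over 6 ratios p = 0.714, 0.714 and 0.300). In DMSO replicate 4 all 3 ratios were the lowest of the 8 libraries, where B2M was at its highest and each heavy chain at its lowest among the DMSO libraries.

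**Figure D3:**
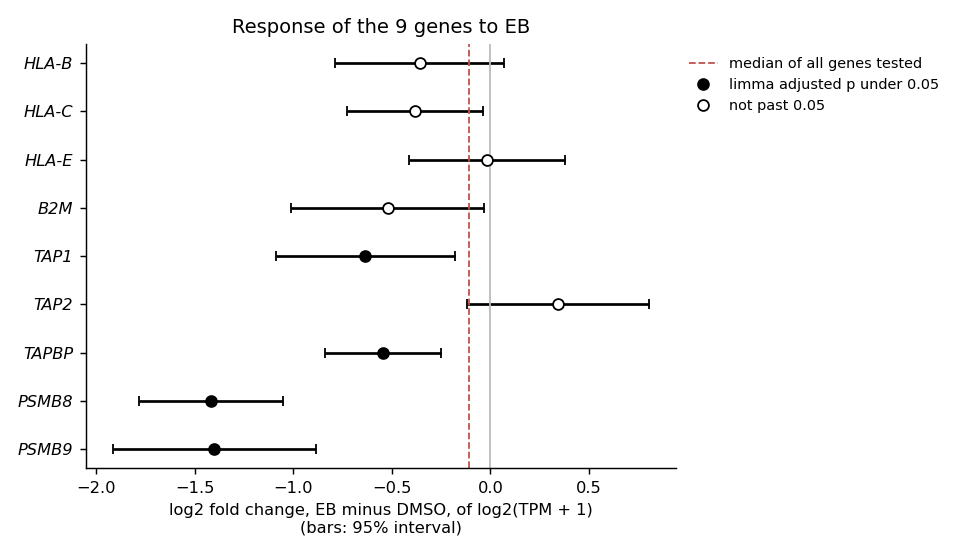
Log2 fold change of the 9 genes, EB minus DMSO, on the log2(TPM + 1) scale with 95% intervals from limma (n = 4 per group). Filled points are called at an adjusted p under 0.05, and the dashed red line is the median of all genes tested (−0.11). PSMB8 and PSMB9 lie farthest below it, and TAP2 is the single gene above 0.

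The order of the levels also differed between the groups. With DMSO it ran, from the highest mean, HLA-B, B2M, HLA-C, TAPBP, HLA-E, PSMB9, PSMB8, TAP1 and TAP2. Of the neighbours in this order, TAP1 and TAP2 alone had ranges that did not overlap. With EB it ran HLA-B, HLA-E, B2M, HLA-C, TAPBP, TAP1, TAP2, PSMB9 and PSMB8, and TAPBP and TAP1 alone were apart. The immunoproteasome subunits thus moved from above both transporter subunits to below them in mean TPM.

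Scaling moved these counts. With mitochondrially encoded genes removed and the TPM rescaled, 7 of the 9 genes were called lower, the other 3 being HLA-B (−0.54), HLA-C (−0.57) and B2M (−0.71). In the same setting 41.4% of all genes were called lower and the median of all genes was −0.28. With median-ratio scaling, where the median of all genes was 0.01, 3 genes were called lower and 1 (TAP2) higher, against 25.7% and 26.8% of all genes. With quantile normalization 6 were lower and 1 higher (TAP2), against 23.5% and 23.8% of all genes.

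Other steps of the pathway were read from lists compiled by hand, whose counts stand against 25.1% of all genes called lower and 15.2% higher. Of 9 peptidases that trim class I peptides, 4 were lower with EB and 0 higher, with a median log2 fold change of −0.62 (limma, with 5 lower and 0 higher at an unadjusted p under 0.05). ERAP2 and ERAP1, the aminopeptidases of the endoplasmic reticulum, fell from 15.1 ± 1.64 to 3.28 ± 0.767 TPM and from 14.7 ± 1.20 to 6.49 ± 1.07 TPM (SD, n = 4 each; −1.93 and −1.07). The cytosolic peptidases NPEPPS (−0.84) and TPP2 (−0.62) also fell. These 4 calls held under all 17 alternatives. Of 4 partners of the immunoproteasome, the catalytic subunit PSMB10 (−1.07) and the activator subunit PSME1 (−0.59) were lower, PSME2 had 145 ± 24.7 TPM with DMSO and 127 ± 11.8 with EB and was not called, and the assembly chaperone POMP rose from 42.1 ± 4.25 to 108 ± 13.5 TPM (1.33). All 3 subunits that interferon induces in the catalytic core, PSMB8, PSMB9 and PSMB10, were therefore lower with EB, while 2 of their 3 constitutive counterparts were higher. Of 6 chaperones of peptide loading, 0 were called by limma, with 1 lower and 0 higher at an unadjusted p under 0.05 and a median of −0.11. Without DMSO replicate 4, and also with mitochondrially encoded genes removed, 3 of the 6 were called lower, against 36.4% and 41.4% of all genes. With median-ratio scaling 2 of the 6 were called higher, against 26.8% of all genes. Of 7 other proteins that pair with B2M, 4 were tested and HFE, a regulator of iron uptake, was called lower (−0.73, limma adjusted p = 0.0333). That call held in 9 of 16 alternatives.

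Among 12 transcription factors that act on class I genes, 6 were lower with EB and 0 higher, with a median log2 fold change of −0.48 (limma, with 7 lower and 0 higher at an unadjusted p under 0.05). The 6 of 12 stand against 25.1% of all genes called lower. With 1 library left out the count was 4 to 8, against 16.9% to 36.4% of all genes. The 8 came without DMSO replicate 4, where the share of all genes was 36.4%. IRF1, which binds interferon response elements, fell from 61.8 ± 9.60 to 13.6 ± 5.94 TPM (SD, n = 4 each; −2.17, limma adjusted p = 0.000278). NLRC5, the transactivator of MHC class I genes, fell from 9.44 ± 2.58 to 1.81 ± 0.361 TPM (SD, n = 4 each; −1.86, limma adjusted p = 0.000248). Neither gene overlapped between the groups, and both were called under all 17 alternatives. NFYA, a subunit of NF-Y, fell as well (−1.07). RFX5, a subunit of the RFX complex that NLRC5 works with, was lower (−1.09, limma adjusted p = 0.0472), but DMSO replicate 4 overlapped the EB libraries and the call held in 8 of 17 alternatives. The lower genes also included IRF2 and the NF-kB subunit gene NFKB1. NFKB1 overlapped between the groups, and its call held in 14 of 17 alternatives. RFXAP, RFXANK, NFYB, NFYC, CREB1 and the other NF-kB subunit gene on the list, RELA, were not called (limma adjusted p = 0.0912 to 0.861).

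Of 12 interferon receptors and JAK-STAT components, 4 were lower and 1 higher, with a median of −0.32, counts near the 25.1% and 15.2% of all genes. STAT2, a transcription factor of the response to type I interferon, fell from 16.9 ± 4.05 to 8.67 ± 2.34 TPM (SD, n = 4 each; −0.89). IFNGR2, a chain of the receptor for interferon gamma, fell by 0.70 on the log2 scale. The feedback inhibitors went apart, since SOCS3 fell (−1.40) and SOCS1 rose from 4.31 ± 1.31 to 12.0 ± 1.41 TPM (1.32). These 4 named calls held under all 17 alternatives. Of 10 tested genes linked to silencing or turnover of class I, 1 was lower and 4 were higher, with a median of −0.03. The count was 4 lower and 4 higher without DMSO replicate 4, against 36.4% and 15.7% of all genes. With mitochondrially encoded genes removed it was 4 lower and 2 higher, against 41.4% and 12.1% of all genes. BCAP31, which carries class I molecules out of the endoplasmic reticulum, rose from 164 ± 25.0 to 360 ± 29.9 TPM (1.14), and the signal peptide peptidase HM13 rose by 0.49. The subunits of the Polycomb repressor complex that methylates histone H3 were split, with SUZ12 lower (−0.79) and EED (0.38) and EZH2 (0.34) higher. The calls of EED and EZH2 held in 9 and 7 of 17 alternatives.

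**Figure D4:**
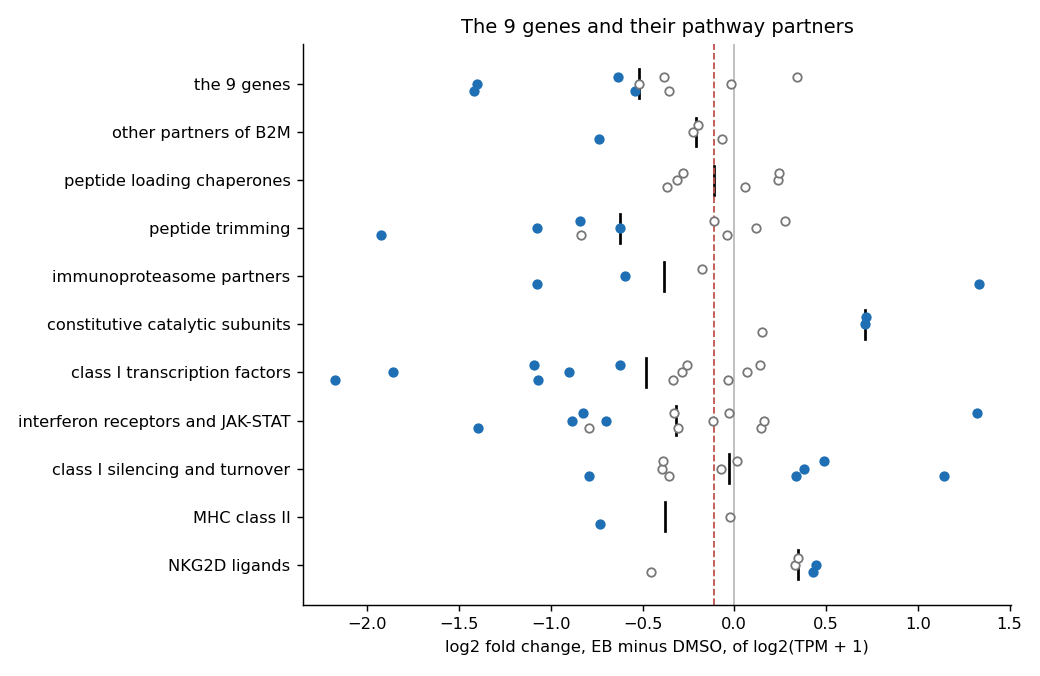
Log2 fold change, EB minus DMSO, of the genes tested on each list, 1 strip per list. Blue points are called by limma at an adjusted p under 0.05, the black tick is the median of the list and the dashed red line the median of all genes tested (−0.11). Of the lists plotted, peptide trimming has the lowest median (−0.62) and the constitutive catalytic subunits the highest (0.71).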

How the data were processed

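RNA sequencing libraries of PANC-1 cells (4 with DMSO, 4 with EB) were used as a single table of TPM that the authors deposited, computed within each library. Per the methods, CLC Genomics Workbench did the trimming, mapping and normalization, and further tools are listed. The genome is named both as GRCm38 and as hg38, and the gene identifiers are human. Columns headed C were read as DMSO and those headed H as EB, the only other group. TPM hold no counts, so depth and counting error are unknown. Of 20263 identifiers, 20148 matched a symbol in GENCODE release 44, which gave positions.

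TPM were tested as log2(TPM + 1) with limma 3.58.1 in R 4.3.3 (lmFit and eBayes, no block, prior degrees of freedom 3.88), in genes that reached 1 TPM in 4 or more libraries, with Benjamini-Hochberg adjustment over all 11725. The threshold of 1.5 on the absolute log2 fold change with an unadjusted p under 0.05 is a reading of the study's cutoffs. Ratios within a library were compared by exact two-sided permutation tests. The steps were tested on simulated data. The genes and lists were chosen with earlier results of these data known. The genes named are the 9, at most the 4 called genes with the largest absolute log2 fold change on each list, genes in a ratio, and the 5 genes most alike to the 9. A called gene on a list is not reported here. IRF2, NFKB1, PSME2, HLA-DMA, the transcription factors given as not called and the markers were named after their values were seen. Plots used Python 3.11.15 and matplotlib 3.10.9.

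The settings changed one at a time were the pseudocount (0.1), the filter (none, or 5 TPM), the scaling between libraries (median-ratio or quantile), removal of mitochondrially encoded genes, removal of the trend on length and GC content, an intensity trend, a replicate block and each library left out.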

Additional observations from a re-analysis of the deposited data

How the results depend on the processing

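The count of the 9 genes called lower was 7 with mitochondrially encoded genes removed, 7 with the length and GC trend removed and 7 with a replicate block (the other 3 being HLA-B, HLA-C and B2M each time, against 41.4%, 20.3% and 30.1% of all genes), and 3 to 6 with 1 library left out (6 without DMSO replicate 4). In the fits with 1 library left out, 16.9% to 36.4% of all genes were called lower (36.4% without DMSO replicate 4). The count called higher was 1 with median-ratio scaling, quantile normalization or the trend removed, against 26.8%, 23.8% and 10.5% of all genes. It was 0 without any single library, against 10.6% to 15.7% of all genes. HLA-E changed sign with median-ratio scaling (0.11) and ranged from −0.18 to 0.064 without 1 library. The replicate numbers did not pair the libraries (correlation of deviations −0.09 to 0.28, above 0.1 in 2 of 4 pairs, and not every library correlated best with its own number). As differences within numbers, with a replicate block, the ratios are −1.62 (PSMB8/PSMB5), −2.17 (PSMB9/PSMB6) and −1.02 (TAP1/TAP2) by construction, and with 4 numbers the exact sign-flip test cannot go below p = 0.125. Without 1 library these ratios ranged from −1.71 to −1.50, −2.28 to −2.09 and −1.08 to −0.97. With 1 library left out the exact permutation p cannot go under 0.05. With all libraries the permutation p adjusted over 6 ratios was 0.0571 for each of the 3. HLA-B/B2M ranged from −0.11 to 0.36, HLA-C/B2M from −0.10 to 0.27 and HLA-E/B2M from 0.23 to 0.66. Over all genes, 2944 were called lower and 1785 higher (37.7% of calls higher), against 4954 and 1451 (22.7%) with mitochondrially encoded genes removed, 3017 and 3152 (51.1%) with median-ratio scaling, 2759 and 2792 (50.3%) with quantile normalization, and 1950 lower without DMSO replicate 3. The cause was not tested. Unknown depth limits what low values can show.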

Other observations

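Genes of neighbouring antigen presentation and recognition systems gave the following values. Of 10 MHC class II genes, 8 stayed below 1 TPM in all libraries, 4 of them at 0. HLA-DMB, a chaperone of class II loading, had 1.78 ± 0.295 TPM with DMSO and 0.684 ± 0.252 with EB (SD, n = 4 each), and it passed the filter of 1 TPM in 4 libraries through the DMSO libraries, where it is high. HLA-DMA had 2.21 ± 0.522 and 2.12 ± 0.194 TPM. Of 8 ligands of the natural killer cell receptor NKG2D, 5 were tested. By limma 2 were called higher and 0 lower, against 15.2% and 25.1% of all genes. At an unadjusted limma p under 0.05, 3 were higher and 1 lower, against 19.4% and 30.5% of all genes. The count called higher was 0 to 1 when 1 library was left out, against 10.6% to 15.7% of all genes. With mitochondrially encoded genes removed it was 0, against 12.1% of all genes, and 1 ligand was called lower, against 41.4%. ULBP2 rose by 0.44 and ULBP1 by 0.43 on the log2 scale, calls that held in 8 and 10 of 17 alternatives.

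The genes on no list whose levels over the 8 libraries were most like the mean standardized level of the 9 genes were TRIM69, FDXR, CCNL2, QARS1 and AUH (Pearson's r of 0.984 to 0.989). This is a description over libraries that share the EB contrast and the mitochondrial share of DMSO replicate 4. Among the fibroblast markers, COL1A2 was well expressed and fell from 79.4 ± 12.2 to 43.9 ± 5.53 TPM with EB (SD, n = 4 each). COL1A1 had 1.87 ± 0.236 TPM with DMSO and 0.896 ± 0.105 with EB (SD, n = 4 each) and passed the filter through the DMSO libraries. DCN and LUM were listed at 0. The 4 endothelial markers stayed at or below 0.305 TPM.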
